A study of Mus musculus with 28 samples.

Results

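The genes described here drive or mark cell division. They were taken from a list of 39 cell cycle and proliferation genes, of which 38 had a probe set with that single gene symbol, out of 19938 genes measured. The list holds cyclins, the helicase that licenses DNA replication, enzymes that supply and copy DNA, mitotic kinases, kinetochore and checkpoint proteins, spindle motors and the proliferation antigen Mki67. The expression of Ccnb1 was not analysed here, although its promoter was. The rule that takes genes from the list uses no measured value. The list itself and the marker lists used below were, however, chosen with earlier results of these data known.

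RNA of mouse hippocampus was measured on 28 Affymetrix Mouse Gene 1.0 ST arrays, all from strain C57BL/6J. Young mice of 10 weeks carried wild type fosB, the null allele (G/G, called fosB-null here) or fosB d/d (labelled as lacking the FosB protein), and were given saline or kainate (KA), with 3 arrays in each of 6 groups. Kainate is a glutamate receptor agonist that provokes seizures. In the aged class, of 64.7 to 71 weeks, there were 3 wild type arrays, 3 of fosB-null mice with epilepsy, 2 of fosB-null mice free of it and 2 of fosB d/d mice, with no KA or saline in their labels. For neither allele do the labels name a promoter or cell type. Replicates are labelled biological. How long after KA the tissue was taken is not stated in the sources used here.

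The labels conflict in places that touch these comparisons. The arrays of fosB d/d mice titled saline have a source name that speaks of kainate, and they were grouped by title and treatment as saline. A protocol gives 14 months for every mouse, against the age labels that were followed. All mice are labelled female, yet Eif2s3y, a Y-linked gene, stood at 9.78 to 10.41 in the 18 young arrays and at 4.12 to 4.51 in the 10 aged arrays (log2 signal), and Xist stood at 5.91 to 9.58 against 12.09 to 13.00. Age and this sex-linked signal therefore cannot be told apart. The young arrays also came in 3 sets with different deposited medians: replicate 1 of every young group (8.07 to 8.11), replicates 2 and 3 of wild type KA and all saline groups (8.33 to 8.43), and replicates 2 and 3 of the 2 mutant KA groups (8.05 to 8.11). In wild type mice KA and saline arrays can be compared inside a set, whereas the third set holds mutant KA arrays and no others. Values are therefore given after quantile normalization of the 28 arrays. Fosb itself ran from 7.81 to 9.38 in young and from 8.32 to 10.03 in aged arrays, which does not check the genotype labels since the sources used here do not place its probes on the transcript. Hippocampal markers lay above most genes, with Prox1 of dentate granule cells at the 90th percentile, Fibcd1 of CA1 neurons at percentile 83.3 and Neurod1 at 72.2.

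Division runs through ordered steps. Cyclins D and E move a cell out of G1, Cdc6 loads the Mcm2 to Mcm7 helicase ring onto DNA, replication enzymes copy the DNA, and cyclins A and B with Cdk1 then start mitosis, when kinetochores, the spindle checkpoint and spindle motors part the chromosomes. E2F factors switch on many genes of the first steps, while many mitotic genes are switched on later through CCAAT boxes and the cell cycle homology region (CHR). In the adult hippocampus neural progenitors of the dentate gyrus, oligodendrocyte progenitors, microglia and reacting glia can divide, and most other cells do not.

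The promoters of the 5 genes that passed a test in young mice are shown because they hold different combinations of these elements. Each is the RefSeq window of 300 bases (build GRCm38.p6), from 250 bases before to 50 after the annotated start, 5′ to 3′ on the strand of the gene. Capitals mark matches on either strand to the CCAAT box, to the CHR letters (TTTGAA or its variant TTCGAA), or to E2F-type letters (GGCGGGAA in one search, TTTCGCGC or its variant TTTGGCGC in another). Mcm2 lies at chr6:88898731-88899030 (minus strand), Mcm3 at chr1:20820263-20820562 (minus), Mcm5 at chr8:75109259-75109558 (plus), Ccne1 at chr7:38107441-38107740 (minus) and Bub1 at chr2:127831810-127832109 (minus).
Mcm2: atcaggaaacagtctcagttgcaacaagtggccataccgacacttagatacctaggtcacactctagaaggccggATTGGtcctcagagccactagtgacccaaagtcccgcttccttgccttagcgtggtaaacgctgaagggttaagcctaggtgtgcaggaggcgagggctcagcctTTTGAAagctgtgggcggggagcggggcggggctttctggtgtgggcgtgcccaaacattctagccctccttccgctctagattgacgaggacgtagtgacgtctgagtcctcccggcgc
Mcm3: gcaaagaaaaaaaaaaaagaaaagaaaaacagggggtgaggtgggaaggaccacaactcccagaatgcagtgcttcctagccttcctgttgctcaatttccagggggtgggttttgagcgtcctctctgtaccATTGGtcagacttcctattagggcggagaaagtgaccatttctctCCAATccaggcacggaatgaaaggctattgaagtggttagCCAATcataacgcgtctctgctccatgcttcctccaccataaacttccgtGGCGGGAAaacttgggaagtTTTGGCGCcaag
Mcm5: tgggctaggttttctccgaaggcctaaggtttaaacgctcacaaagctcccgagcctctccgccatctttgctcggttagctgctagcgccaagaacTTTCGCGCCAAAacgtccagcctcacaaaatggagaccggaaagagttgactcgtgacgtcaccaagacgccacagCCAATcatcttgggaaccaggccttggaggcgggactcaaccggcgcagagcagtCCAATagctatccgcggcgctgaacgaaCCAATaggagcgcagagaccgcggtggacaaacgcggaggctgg
Ccne1: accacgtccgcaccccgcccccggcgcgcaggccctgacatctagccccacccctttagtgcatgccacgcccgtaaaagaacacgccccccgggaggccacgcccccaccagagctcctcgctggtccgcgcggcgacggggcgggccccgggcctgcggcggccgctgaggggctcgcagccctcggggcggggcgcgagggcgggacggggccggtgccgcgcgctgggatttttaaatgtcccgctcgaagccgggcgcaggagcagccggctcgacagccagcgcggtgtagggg
Bub1: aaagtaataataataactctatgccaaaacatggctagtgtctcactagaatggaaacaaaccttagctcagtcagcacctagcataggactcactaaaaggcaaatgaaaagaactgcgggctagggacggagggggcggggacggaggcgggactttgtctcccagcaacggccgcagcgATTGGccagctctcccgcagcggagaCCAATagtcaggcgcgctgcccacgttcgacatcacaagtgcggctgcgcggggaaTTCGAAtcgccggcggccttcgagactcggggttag

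The Mcm3 window held 3 CCAAT boxes and both E2F-type forms, and the Mcm5 window held 3 CCAAT boxes and, in 1 run of capitals, 2 overlapping E2F-type matches on opposite strands. Mcm2 held 1 CCAAT box and 1 TTTGAA, Bub1 held 2 CCAAT boxes and 1 TTCGAA, and Ccne1 held none of these letters. Of the listed genes, 31 of 39 matched the promoter table, with 33 windows. CCAAT stood in 26 of the 33 (78.8%), against 37.4% of all 32851 windows of the same length. The CHR letters stood in 18 (54.5% against 19.2%), GGCGGGAA in 2 (6.06% against 2.19%), and the second E2F-type search matched 5 (15.2% against 0.813%). The last form was added to the search after the sequences had been seen. A match describes the letters and is not a measured binding site.

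Of the 38 genes, 19 lay among the lowest 30% of genes by mean signal, and the other 19 stood above 7.45, the 95th percentile of 1027 olfactory receptor genes taken as a reference for dim probe sets. Among the dim genes were Cenpe, Bub1, Kif2c, Top2a, Nusap1 and Mki67. Brightness also depends on the probes, so signals of different genes are not compared. The SD among arrays of a group had a median of 0.137 over the 38 genes. Differences near that size could not be resolved with 2 or 3 arrays per group, and larger ones could be missed. A change of 0.3 (log2) simulated in 200 genes was called in 5.5% of them for KA against saline in wild type mice. For aged fosB-null mice with epilepsy against aged wild type it was called in 0%. A change of 0.6 was called in 66.5% and 63%, at an adjusted p under 0.05. In the data 1375 genes passed for the first of these comparisons and 0 for the second. The adjusted threshold moves with that number, so the shares found in the data may differ from the simulated ones. In whole tissue, fewer cells of a type and less RNA per cell cannot be told apart.

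In wild type mice 3 subunits of the replicative helicase and cyclin E1 rose after KA, and of 21 genes of mitosis 0 passed the test. With 3 arrays a group, 4 of 38 genes were higher after KA at an adjusted p under 0.05 (limma with Benjamini-Hochberg adjustment over all genes) and 0 were lower, which is 10.5% higher, where 3.48% of all genes were higher and 3.42% lower. At an unadjusted p under 0.05, 7 were higher (9.84% of all genes) and 4 lower (10.4% of all genes). The median difference was 0.07 over the 38 genes and 0.01 over all genes (log2). Without overlap between the groups, 6 of the 38 genes were higher (15.8%, against 10.8% of all genes) and 5 lower (13.2%, against 11.5%).

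Mcm5, a helicase subunit, stood at 8.36, 8.24 and 8.24 in the 3 wild type saline arrays and at 9.12, 8.91 and 8.73 in the 3 KA arrays (log2 signal). The groups did not overlap, and the difference was 0.64 log2 units (SE 0.09, adjusted p = 0.000373), a fold of 1.56. Mcm2, the subunit often stained as a marker of licensed cells, stood at 8.37, 8.40 and 8.36 under saline and at 8.92, 8.94 and 8.96 after KA. Both groups were tight, and Mcm2 rose by 0.56 (SE 0.10, adjusted p = 0.0019), or 1.48-fold. Mcm5 and Mcm2 also passed under all 15 other settings tried.

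Mcm3, a dim gene and another helicase subunit, stood at 7.0, 7.30 and 7.09 under saline and at 7.70, 7.53 and 7.53 after KA. It rose by 0.46 (SE 0.11, adjusted p = 0.0169) with no overlap, but the adjusted p was 0.0515 on the deposited scale, 0.0725 when only these groups were fitted, and 0.0605 to 0.0655 without saline replicate 1, saline replicate 3 or KA replicate 1. Ccne1, cyclin E1, stood at 9.58, 9.58 and 9.44 under saline and at 9.70, 9.88 and 9.85 after KA. It rose by 0.28 (SE 0.08, adjusted p = 0.0446), and it no longer passed in 8 of 15 other settings, among them the deposited scale (0.23, adjusted p = 0.492) and the removal of any of the 6 arrays but KA replicate 1.

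The licensing genes leaned one way as a group. All 7 had a difference above 0 in wild type mice, with a median of 0.25 (all genes 0.01) and 3 of 7 called. Mcm4 was at 0.25 (adjusted p = 0.15), Mcm7 at 0.23 (0.473), Cdc6, the helicase loader, at 0.14 (0.722) and Mcm6 at 0.05 (0.908). The array with the highest mean deviation of these 7 genes from their averages over the 28 arrays was wild type KA replicate 1, at 0.405, and the other wild type KA arrays were at 0.260 and 0.222. The 3 wild type saline arrays were at 0.005, 0.024 and -0.142, so the groups did not overlap.

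**Figure D1:**
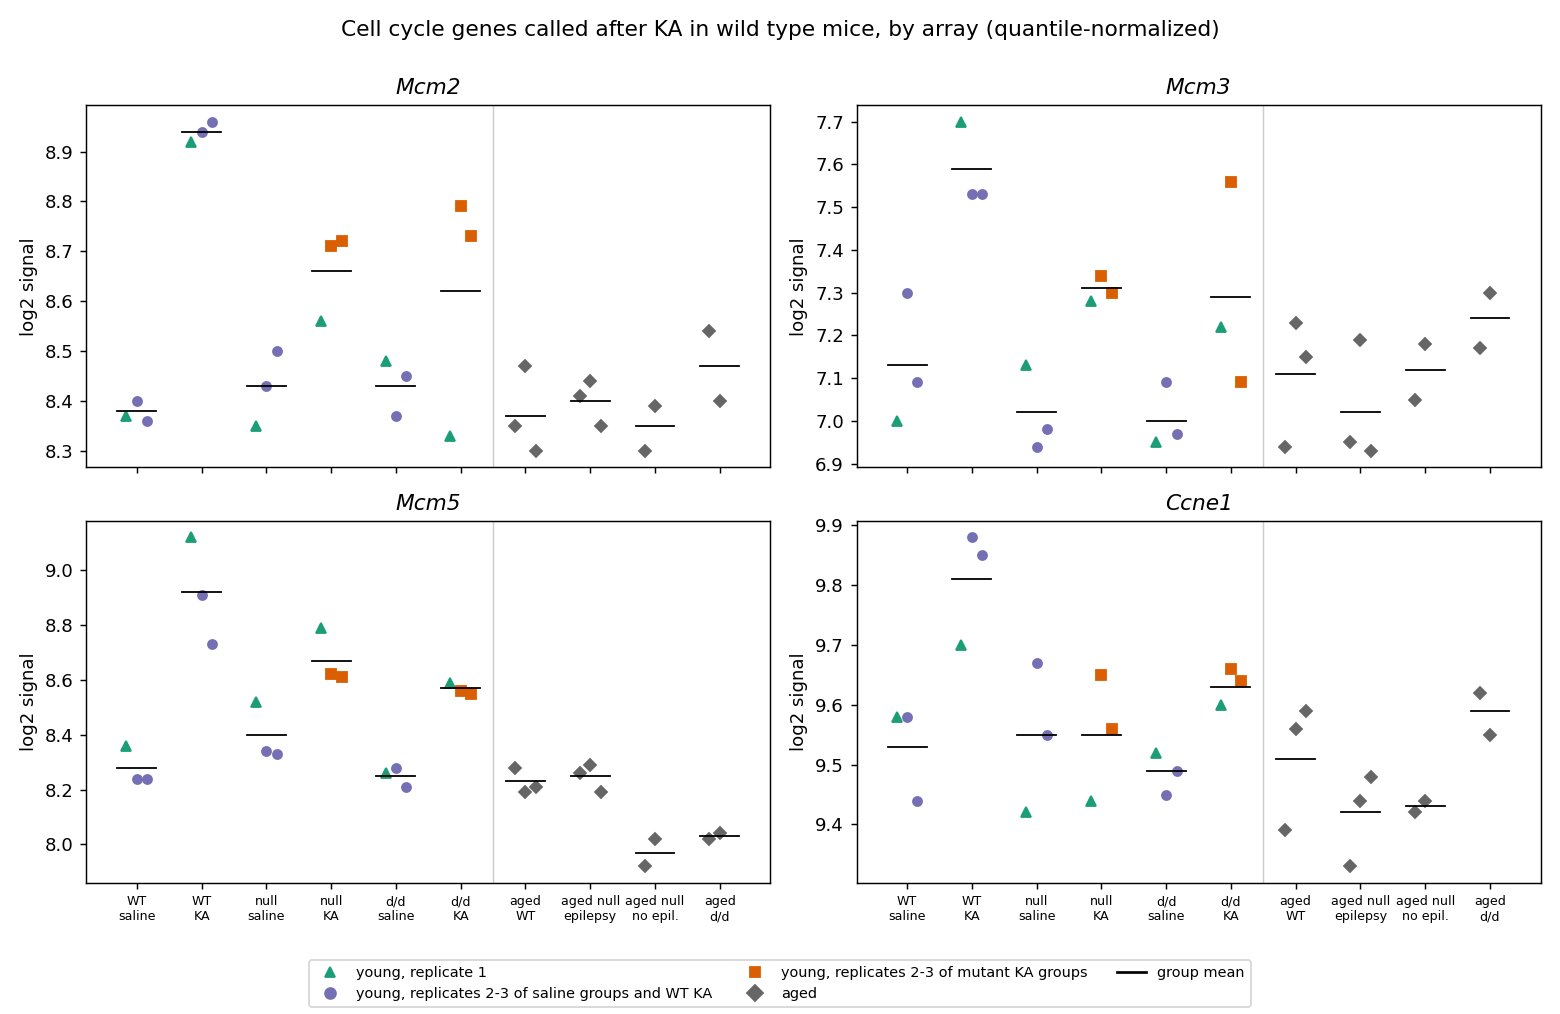
Log2 signal after quantile normalization (vertical axis) of Mcm2, Mcm3, Mcm5 and Ccne1 in each of the 28 arrays, by group (horizontal axis); each symbol is an array, its shape and colour give the array set, and bars are group means. The 3 wild type KA arrays lie above the 3 wild type saline arrays in every panel, and Mcm2 in fosB d/d KA spreads from 8.33 to 8.79.

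Among the genes of DNA synthesis 0 of 5 passed. Pcna, the sliding clamp of the replicative polymerases, was at 11.05, 10.61 and 10.58 under saline and at 11.37, 11.01 and 11.07 after KA, with overlap between groups. Its difference was 0.40 (SE 0.12, adjusted p = 0.0617). Rrm2, the regulated subunit of ribonucleotide reductase, was at 0.27 (adjusted p = 0.282), Rrm1, its large subunit, at 0.04, Top2a, a topoisomerase of dividing cells, at 0.10, and Tyms, thymidylate synthase, at -0.21 (0.187). The other E cyclin, Ccne2, went the other way from Ccne1, at 7.76, 8.27 and 7.76 under saline against 7.58, 7.40 and 7.62 after KA. That difference was -0.40 (SE 0.13, adjusted p = 0.074). Ccnd1, cyclin D1, was at 0.16 (adjusted p = 0.59).

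The 21 genes of mitosis had a median difference of 0.00 after KA in wild type mice, with 11 above and 10 below 0 and 0 called; at an unadjusted p under 0.05, 1 was higher and 2 lower. Cdk1, the mitotic kinase, was at 0.19 (SE 0.19), Ccna2, cyclin A2, at -0.07 (SE 0.07), and Plk1, a kinase of mitotic entry, at -0.33 (SE 0.14, adjusted p = 0.2). Of the kinetochore and checkpoint genes Bub1 was at 0.24 (adjusted p = 0.224), Bub1b at -0.24 (0.248) and Cenpe, the kinetochore kinesin, at -0.28 (0.115). Spindle genes lay between -0.19 (Kif11) and 0.12 (Kif20a). Mki67 was at 7.11, 7.52 and 7.53 under saline and at 7.18, 7.58 and 7.50 after KA, a difference of 0.03 with a 95% confidence interval of -0.34 to 0.41. Foxm1, a transcription factor for mitotic genes, was at 0.02 with an interval of -0.14 to 0.19.

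The wild type response can be read inside 2 array sets, the first with 1 array per group and the second with 2. Mcm2 differed by 0.55 and 0.57 and Mcm5 by 0.77 and 0.58 in the first and second set. Other licensing genes varied more, with 0.71 and 0.34 for Mcm3, 0.40 and 0.17 for Mcm4, 0.17 and 0.25 for Mcm7, 0.23 and -0.04 for Mcm6, and -0.02 and 0.23 for Cdc6. In each set 6 of the 7 were above 0. With the array set as a block 8 genes passed, adding Pcna and Rrm2 as higher and Ccne2 and Plk1 as lower (17.6% of all genes passed in that fit). In the second set alone 9 passed, with Birc5 higher and Cenpe lower among them (17.7% of all genes).

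**Figure D2:**
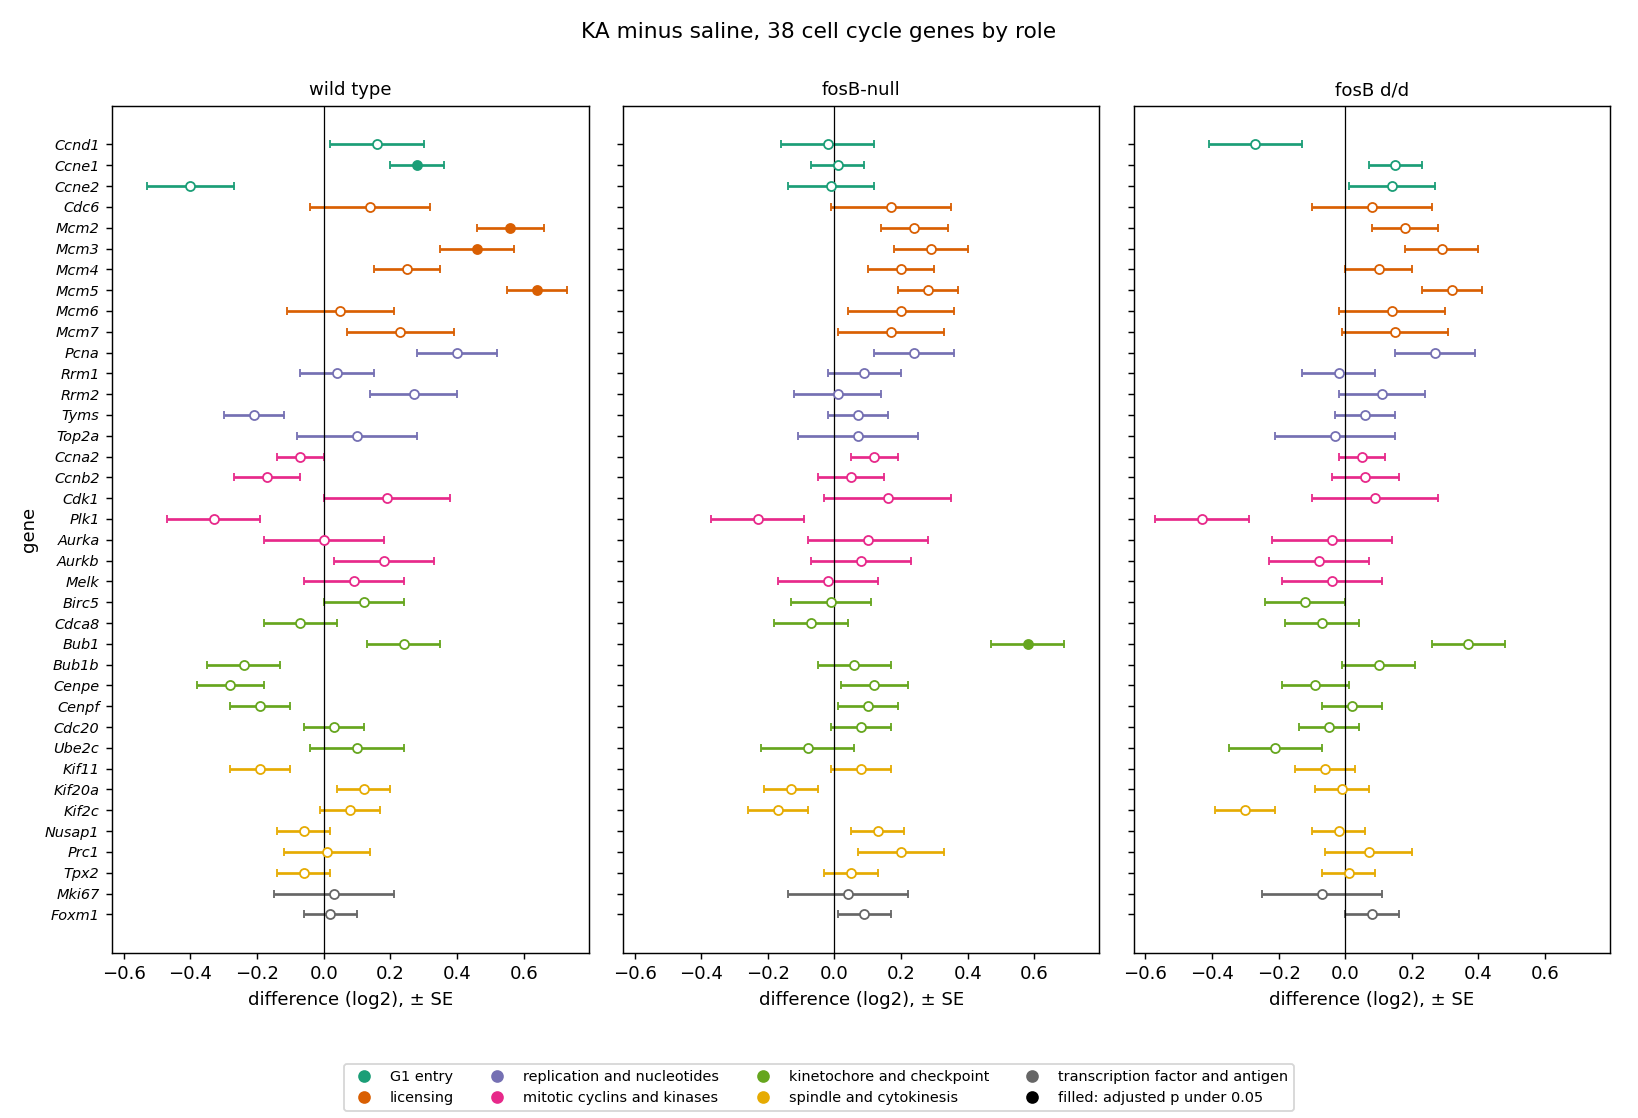
Difference KA minus saline (log2, horizontal axis) with its standard error for each of the 38 genes (vertical axis, ordered and coloured by role) in wild type, fosB-null and fosB d/d mice; filled points have an adjusted p under 0.05. The licensing genes Mcm2, Mcm3 and Mcm5 and Ccne1 are filled in wild type, Bub1 alone is filled in fosB-null, and no point is filled in fosB d/d.

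Cell cycle genes outside the list were counted in the same comparison, in which 6.9% of all genes passed in either direction. Among 40 other S-phase genes 2 rose and 0 fell: Cdt1, the partner of Cdc6 in licensing (0.39, SE 0.09, adjusted p = 0.0195), and Hells, a chromatin remodeller (0.57, SE 0.16, adjusted p = 0.0416). Among 64 other mitotic genes 2 rose, Kif18a, a spindle kinesin (1.12, adjusted p = 0.000701), and Cdkn3 (0.70, 0.00529), and 1 fell, Cdc25b, the phosphatase that activates Cdk1 (-0.39, 0.0244). Of 14 other G1 cyclins and kinases and their regulators 3 rose, Myc (1.07), Cdk6 (0.46) and Cdk4 (0.34), and 0 fell. Of 21 inhibitors and p53 targets 3 rose and 2 fell, with Gadd45b at 0.71, Gadd45a at 0.47 and Cdkn2c, the p18 inhibitor of Cdk4 and Cdk6, at -0.49.

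Markers of cells that could hold these transcripts moved with KA in wild type mice. Reactive astrocyte markers rose in 13 of 15 (Timp1, Serpina3n and Gfap first), and their mean deviation was -0.50 to -0.36 in saline and 1.06 to 1.32 in KA arrays. Microglia markers rose in 10 of 19 and fell in 1, with ranges of -0.21 to -0.03 and 0.19 to 0.27. Neural progenitor markers, a list that shares Gfap and Vim with the reactive astrocyte list, rose in 3 of 13 and fell in 1. Gfap (1.56) and Vim (1.44) were among those that rose, and Prom1 fell (-0.50). The median difference of the neural progenitor list was 0.03, with ranges of -0.09 to -0.03 and 0.13 to 0.20. Immature neuron markers fell in 2 of 11, Dcx (-0.34) and Prox1 (-0.23), with ranges of 0.01 to 0.12 and -0.08 to 0.07. Prox1 was used above as a marker of dentate granule cells, so it is not particular to immature neurons. Igfbpl1 of the same list went the other way without passing (0.23, adjusted p = 0.0936 by limma). Oligodendrocyte progenitor markers fell in 2 of 11, Cspg4 (-0.47) and Gpr17 (-0.55), with ranges of 0.03 to 0.10 and -0.14 to -0.08. Endothelial markers fell in 2 of 9 (0.07 to 0.09 against -0.14 to 0.08). Of 9 blood markers 0 passed, with ranges of -0.26 to -0.01 and -0.02 to 0.12. Of 10 choroid plexus markers 0 passed too, with wide ranges of -1.01 to 0.49 and -0.22 to 0.53. The part of any of these cells in the helicase genes was not tested.

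In fosB-null mice 1 of 38 genes passed after KA, and it was a gene of the spindle checkpoint. That is 2.63% higher, where 0.471% of all genes were higher and 0.291% lower. At an unadjusted p under 0.05, 4 were higher (5.77% of all genes) and 0 lower (6.73% of all genes). Bub1, the checkpoint kinase, stood at 5.84, 5.98 and 5.94 in saline and at 6.37, 6.48 and 6.65 in KA arrays. All 3 KA arrays were above all 3 saline arrays, and Bub1 rose by 0.58 (SE 0.11, adjusted p = 0.0169). It is a dim gene and no longer passed in 8 of 13 other settings. Among them were the deposited scale (0.35, adjusted p = 0.264), the array set as a block (0.59, adjusted p = 0.235) and the removal of any of the 6 arrays but KA replicate 1. In the first array set, with 1 array per group, Bub1 differed by 0.53 in fosB-null, 0.50 in wild type and 0.52 in fosB d/d mice. In the second set it differed by 0.11 in wild type.

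In fosB-null mice 0 of the 7 licensing genes passed, with values between 0.17 and 0.29. Mcm5 stood at 8.52, 8.34 and 8.33 in saline and at 8.79, 8.62 and 8.61 in KA arrays, a difference of 0.28 (SE 0.09, adjusted p = 0.198). With the replicate number as a block, where the numbers were taken as pairing these arrays, Mcm5 passed (adjusted p = 0.0409). With the array set as a block it did not (0.24, adjusted p = 0.513). Mcm3 was at 7.13, 6.94 and 6.98 against 7.28, 7.34 and 7.30, a difference of 0.29 (adjusted p = 0.277). Mcm2 was at 8.35, 8.43 and 8.50 against 8.56, 8.71 and 8.72, a difference of 0.24 (adjusted p = 0.323), which was 0.06 with the array set as a block. In none of these 3 did the groups overlap; without overlap and higher were 8 of the 38 genes (21.1%), against 7.71% of all genes. All 7 licensing genes were above 0, with a median of 0.20, and in the first array set 5 of 7 were. On the deposited scale, where the median gene moved by -0.17 and which mixes the array sets, 5 of 7 were above 0 and 7 of 7 above the median gene. Ccne1 was at 0.01 (-0.14 on the deposited scale and -0.03 with the array set as a block), with 9.42, 9.67 and 9.55 in saline and 9.44, 9.65 and 9.56 in KA arrays. Reactive astrocyte markers rose in 10 of 15 (-0.54 to -0.34 in saline, 0.38 to 0.85 in KA arrays). Of 19 microglia markers 0 were called higher and 1 lower, P2ry12. The mean deviation of the microglia markers was nonetheless higher after KA, at -0.14 to -0.11 in saline and 0.04 to 0.05 in KA arrays. The part of either cell type in the values of Bub1 and the helicase genes was not tested. Of the other mitotic genes Kif18a rose (0.99, adjusted p = 0.0108), as the only one of 64 called.

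In fosB d/d mice 0 of 38 genes passed after KA (limma), against 0.461% of all genes in either direction. At an unadjusted p under 0.05, 4 were higher (5.54% of all genes) and 2 lower (6.7% of all genes). Mcm5 stood at 8.26, 8.28 and 8.21 in saline and at 8.59, 8.56 and 8.55 in KA arrays. The groups were tight and did not overlap, and the difference was 0.32 (SE 0.09, adjusted p = 0.144). Higher without overlap were 4 of the 38 genes (10.5%, against 7.33% of all genes). With the replicate number as a block Mcm5 passed (adjusted p = 0.0244), and with the array set as a block it did not (0.29, adjusted p = 0.217). Bub1 was at 5.95, 6.00 and 6.05 against 6.48, 6.48 and 6.15, a difference of 0.37 (adjusted p = 0.169). Kif2c, a kinesin that takes microtubules apart at kinetochores, was at 6.40, 6.66 and 6.51 against 6.36, 6.13 and 6.18, a difference of -0.30 (adjusted p = 0.189). Mcm2 was split by array set: the KA arrays stood at 8.33 for replicate 1 and at 8.79 and 8.73 for replicates 2 and 3, beside 8.48, 8.37 and 8.45 in saline. The difference of 0.18 was 0.00 with the array set as a block. All 7 licensing genes were above 0 with a median of 0.15, and in the first array set 5 of 7 were, with Cdc6 at -0.48 and Mcm2 at -0.15. On the deposited scale 3 of 7 were above 0 and 7 of 7 above the median gene, which moved by -0.17. Reactive astrocyte markers rose in 6 of 15 (-0.47 to -0.41 in saline, 0.16 to 0.84 in KA arrays) and microglia markers in 0 of 19 (-0.24 to -0.13 against -0.14 to 0.06), and their part was not tested.

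A difference between genotypes in the response to KA was not detected for any of the 38 genes. For fosB-null minus wild type 0 passed, against 0.176% of all genes, with 5 higher (6.24% of all genes) and 4 lower (7.46%) at an unadjusted p under 0.05. For fosB d/d minus wild type 0 passed, against 0.0301% of all genes, with 2 higher (3.4%) and 4 lower (4.55%) unadjusted. Both contrasts use the same wild type arrays. The Mcm5 response minus that of wild type was -0.36 for fosB-null (SE 0.13, 95% confidence interval -0.63 to -0.09, adjusted p = 0.221) and -0.32 for fosB d/d (SE 0.13, -0.59 to -0.05, adjusted p = 0.542). The Mcm2 difference was -0.33 (interval -0.61 to -0.04, adjusted p = 0.307) and -0.38 (-0.67 to -0.09, adjusted p = 0.475). The other genes of smallest p were Cenpe (0.40, adjusted p = 0.234) and Ccne1 (-0.27, 0.294) for fosB-null, and Ccne2 (0.53, 0.428) and Kif2c (-0.38, 0.442) for fosB d/d.

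With the array set as a block the Mcm2 difference did pass, at -0.51 for fosB-null (SE 0.10, adjusted p = 0.0324) and at -0.56 for fosB d/d (SE 0.10, adjusted p = 0.022). The set of mutant KA replicates 2 and 3 holds no saline array, so the first set is the only one that holds both KA and saline arrays of a mutant, 1 of each. In the first set the KA minus saline difference of Mcm2 was 0.55 in wild type, 0.22 for the null and -0.15 for fosB d/d. For Mcm5 it was 0.77, 0.26 and 0.34.

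**Figure D3:**
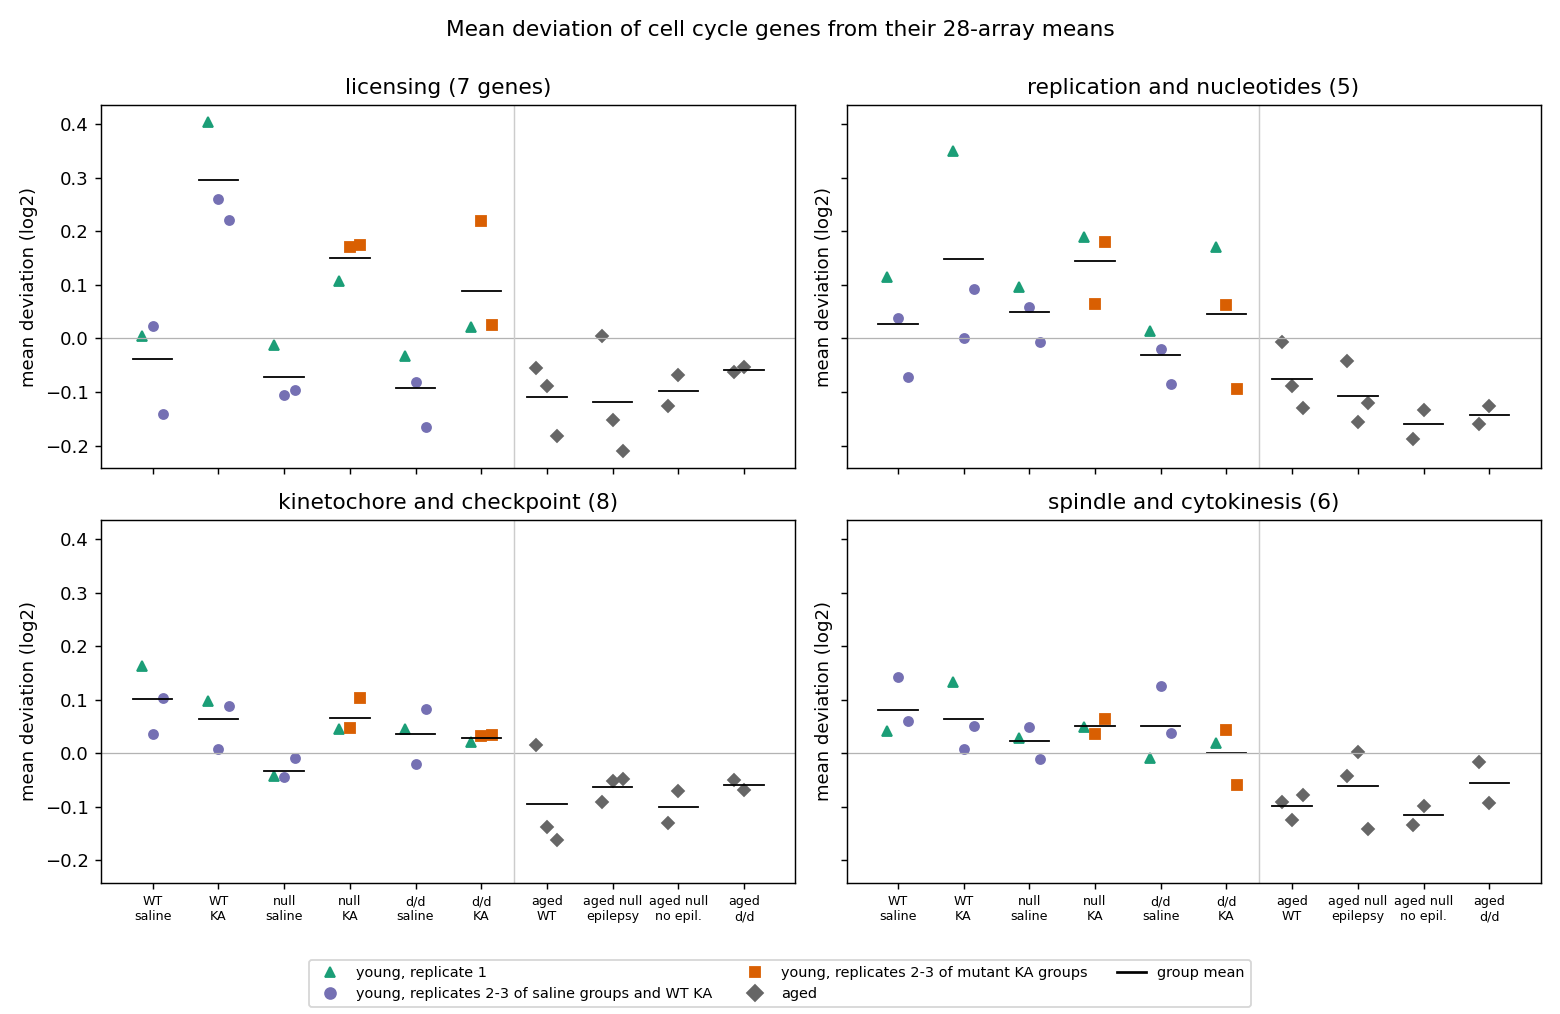
Mean deviation of the genes of 4 roles from their averages over the 28 arrays (log2, vertical axis), by group (horizontal axis); each symbol is an array, its shape and colour give the array set, and bars are group means. Licensing genes are highest in wild type KA (0.222 to 0.405), and kinetochore and spindle genes of the aged arrays lie mostly below 0.

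Genotypes under saline did not differ in any of the 38 genes beyond the test. For fosB-null against wild type 0 passed (0.0802% of all genes), with 0 higher (3.77% of all genes) and 5 lower (5%) at an unadjusted p under 0.05. Cenpe was at 6.23, 6.39 and 6.44 in wild type and at 6.19, 6.01 and 5.92 in fosB-null saline arrays (difference -0.31, SE 0.10, adjusted p = 0.362). Cenpf, another kinetochore protein, was at 6.95, 6.70 and 6.83 against 6.61, 6.42 and 6.66 (-0.26, adjusted p = 0.415). Ccne2 was at 7.76, 8.27 and 7.76 against 7.56, 7.64 and 7.58 (-0.34, adjusted p = 0.463), with 1 high wild type array. In all 3 genes every fosB-null array was below every wild type array, as in 5 of the 38 genes (13.2%, against 7.98% of all genes).

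For fosB d/d against wild type under saline 0 passed (0.01% of all genes), with 0 higher (0.888% of all genes) and 1 lower (0.928%) at an unadjusted p under 0.05. Ccne2 was lower here too, at 7.49, 7.67 and 7.61 (-0.34, adjusted p = 1), against the same wild type arrays. Foxm1 was at 7.66, 7.37 and 7.42 against 7.60, 7.74 and 7.56 (-0.15, adjusted p = 1), and Bub1 differed by -0.17 (adjusted p = 1). Foxm1 overlapped between the groups.

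After KA 5 of 7 licensing genes had lower values in fosB-null than in wild type mice, and 6 of 7 in fosB d/d, and none passed the test. For fosB-null 0 of 38 passed (0.792% of all genes), with 0 higher (5.12% of all genes) and 5 lower (8.18%) at an unadjusted p under 0.05. These were Ccne1 (-0.26, adjusted p = 0.147), Mcm2 (-0.28, 0.214), Mcm5 (-0.25, 0.235), Mcm3 (-0.28, 0.262) and Kif2c (-0.24, 0.25). With the replicate block, where the numbers were taken as pairing the arrays, Ccne1 passed (adjusted p = 0.0488). With the array set as a block Ccne1 did not (-0.29, adjusted p = 0.144), while Mcm2 (-0.46, 0.0111) and Aurka (-0.39, 0.046) passed. For fosB d/d 0 passed (0.687% of all genes), with 0 higher (5.03% of all genes) and 6 lower (7.26%) unadjusted. These were Mcm5 (-0.35, adjusted p = 0.0965), Mcm2 (-0.32, 0.158), Kif2c (-0.28, 0.214), Mcm3 (-0.30, 0.26), Mcm4 (-0.23, 0.332) and Ccne1 (-0.18, 0.379). With the replicate number as a block Mcm5 passed here too (adjusted p = 0.0151), although the numbers were not taken as pairing these arrays. With the array set as a block Mcm2 (-0.50, adjusted p = 0.00526) and Mcm5 (-0.39, 0.0312) passed. Kif2c was at 6.41, 6.46 and 6.64 in wild type KA, 6.34, 6.32 and 6.11 in fosB-null KA and 6.36, 6.13 and 6.18 in fosB d/d KA. The comparisons share the wild type KA arrays and set replicates 2 and 3 of different array sets against each other. On the deposited scale 4 genes were lower in fosB d/d (Mcm3, Mcm5, Mcm7 and Rrm2), where the median gene was at -0.22.

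In aged mice no cell cycle gene passed by genotype or epilepsy. For fosB-null mice with epilepsy against wild type 0 of 38 passed, as did 0 of all genes (0%), and 0 of 38 had an unadjusted p under 0.05 (3.37% of all genes). Top2a was at 6.43, 6.34 and 6.36 in aged wild type and at 6.12, 6.29 and 6.22 in fosB-null with epilepsy (-0.17, SE 0.08, adjusted p = 1). Ccna2 was at 7.60, 7.34 and 7.39 against 7.70, 7.63 and 7.52 (0.18), and Ccnd1 at 10.95, 10.82 and 10.67 against 10.55, 10.79 and 10.59 (-0.17). The last 2 overlapped.

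Within aged fosB-null mice, epilepsy (3 arrays) against none (2) gave 0 of 38 calls (0% of all genes), with 2 higher (5.51% of all genes) and 1 lower (4.26%) at an unadjusted p under 0.05. Mcm5 was at 8.26, 8.29 and 8.19 with epilepsy and at 7.92 and 8.02 without, a difference of 0.28 (SE 0.07, 95% confidence interval 0.11 to 0.44, adjusted p = 0.257). Bub1b, the checkpoint protein BubR1, was at 7.46, 7.36 and 7.50 with epilepsy and at 7.76 and 7.81 without, a difference of -0.34 (SE 0.10, adjusted p = 0.276). Aurka, the kinase of spindle poles, was at 7.74, 8.0 and 7.94 against 7.52 and 7.76 (0.25, adjusted p = 0.509). Mcm5 and Bub1b did not overlap between the groups and Aurka did. The groups also differed in deposited median, which cannot be told apart from epilepsy here. Lack of overlap was common here: 5 of the 38 genes were higher (13.2%, against 14.4% of all genes) and 4 lower (10.5%, against 12.4%). Mki67 was at 0.10 (interval -0.15 to 0.35).

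Bub1b and Mcm5 also had the smallest p where aged fosB-null mice without epilepsy and aged fosB d/d mice were compared with wild type. Both comparisons use the same 3 wild type arrays. In both, the wild type arrays had the higher deposited medians, which cannot be told apart from genotype here. Aged wild type arrays stood at 7.21, 7.39 and 7.27 for Bub1b and at 8.28, 8.19 and 8.21 for Mcm5. In fosB-null without epilepsy (2 arrays) Bub1b differed from wild type by 0.49 (SE 0.10, adjusted p = 0.124), Mcm5 by -0.26 (adjusted p = 0.23) and Ccnd1, at 10.49 in both arrays, by -0.32 (adjusted p = 0.279). There 0 of 38 passed (0.0351% of all genes), with 1 higher (5.89% of all genes) and 4 lower (5.36%) at an unadjusted p under 0.05. In aged fosB d/d Bub1b stood at 7.57 and 7.81 (0.40, adjusted p = 0.202), Mcm5 at 8.02 and 8.04 (-0.20, adjusted p = 0.393) and Cdc6 at 7.28 and 7.06 against 6.98, 6.95 and 6.61 in wild type (0.32, adjusted p = 0.428). There too 0 of 38 passed (0.01% of all genes), with 3 higher (6.19% of all genes) and 1 lower (4.07%) unadjusted.

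Between aged and young wild type mice the genes of mitosis lay lower in the aged, although 0 of 38 passed (0.171% of all genes). At an unadjusted p under 0.05, 0 were higher (3.75% of all genes) and 10 lower (26.3%, against 4.21% of all genes). Over the 38 genes 32 were below 0, with a median of -0.08 against 0.00 for all genes. All 6 spindle genes, 7 of 8 kinetochore and checkpoint genes and 5 of 7 mitotic cyclins and kinases were below 0, with medians of -0.20, -0.21 and -0.04. The lower medians were thus those of mostly dim genes. All spindle genes are dim, as are the kinetochore and checkpoint genes except Cdc20 and Ube2c. Of the mitotic cyclins and kinases only Cdk1 and Melk are dim. The groups did not overlap, aged lower, in 9 of 38 genes (23.7%, against 6.06% of all genes). On the deposited scale the median gene was at -0.17 and the median of the 38 genes at -0.26. This comparison takes in the difference in sex-linked signal, in array set and in saline treatment, which the aged labels do not name. The part of these was not tested.

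Ccna2 had the smallest p, at 7.83, 7.78 and 7.70 in young saline and 7.60, 7.34 and 7.39 in aged wild type arrays (-0.33, SE 0.08, adjusted p = 0.116). Without aged wild type replicate 1, Ccna2 passed (-0.41, adjusted p = 0.0171), as did Cdca8, a subunit of the chromosomal passenger complex. Cenpe was at 6.23, 6.39 and 6.44 against 6.14, 5.94 and 5.96 (-0.34, SE 0.09, adjusted p = 0.257). Nusap1, a protein that bundles spindle microtubules, was at 6.71, 6.89 and 6.80 against 6.51, 6.46 and 6.63 (-0.27, SE 0.08, adjusted p = 0.298). In these 3 genes every aged array was below every young one.

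Mki67 was at 7.11, 7.52 and 7.53 in young saline wild type and at 6.92, 6.98 and 7.10 in aged wild type (-0.38, SE 0.16, adjusted p = 0.53). The young array of the first set lay next to the aged arrays, and the young arrays of the second set stood well above them. Replicate 1 was likewise the lowest Mki67 array of the fosB-null and fosB d/d saline groups, at 7.02 and 7.27 beside 7.45 to 7.58 in the other 4 arrays of those groups. The size of the aged difference in Mki67 thus moved with the array set, whose part was not tested.

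The licensing genes differed little with age: all 7 were below 0, between -0.23 (Mcm6) and -0.01 (Mcm2), with 0 called and 0 at an unadjusted p under 0.05. Ccnd1 was the one with the highest value, 0.26 (adjusted p = 0.636). When all 9 young saline arrays were set beside all 10 aged arrays, the median was lower in the aged for 28 of 38 genes, and Top2a alone did not overlap, with 6.48 to 6.89 in young saline and 6.00 to 6.43 in aged arrays (2.63% of the 38 beside 0.181% of all genes). Top2a is a dim gene, and KA arrays spread from 6.30 to 7.17.

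Of 64 other mitotic genes 1 fell with age, Spc25, a kinetochore protein (-0.55, SE 0.08, adjusted p = 0.00298), and 13 were lower and 2 higher at an unadjusted p under 0.05, with a median of -0.07. Of 40 other S-phase genes 0 passed, with 1 higher and 0 lower unadjusted. Beside these, 0 of 11 immature neuron markers passed (median -0.21, 4 lower unadjusted), with ranges of 0.01 to 0.12 in young saline and -0.12 to -0.03 in aged wild type arrays. Of 11 oligodendrocyte progenitor markers 0 passed (median -0.10; 0.03 to 0.10 against -0.11 to 0.02). Of 13 neural progenitor markers 1 fell, Prom1 (-0.49, adjusted p = 0.00629), and of 19 microglia markers 1 rose, Ctss (0.58, adjusted p = 0.0115). The part of these cells in the lower mitotic values was not tested.

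**Figure D4:**
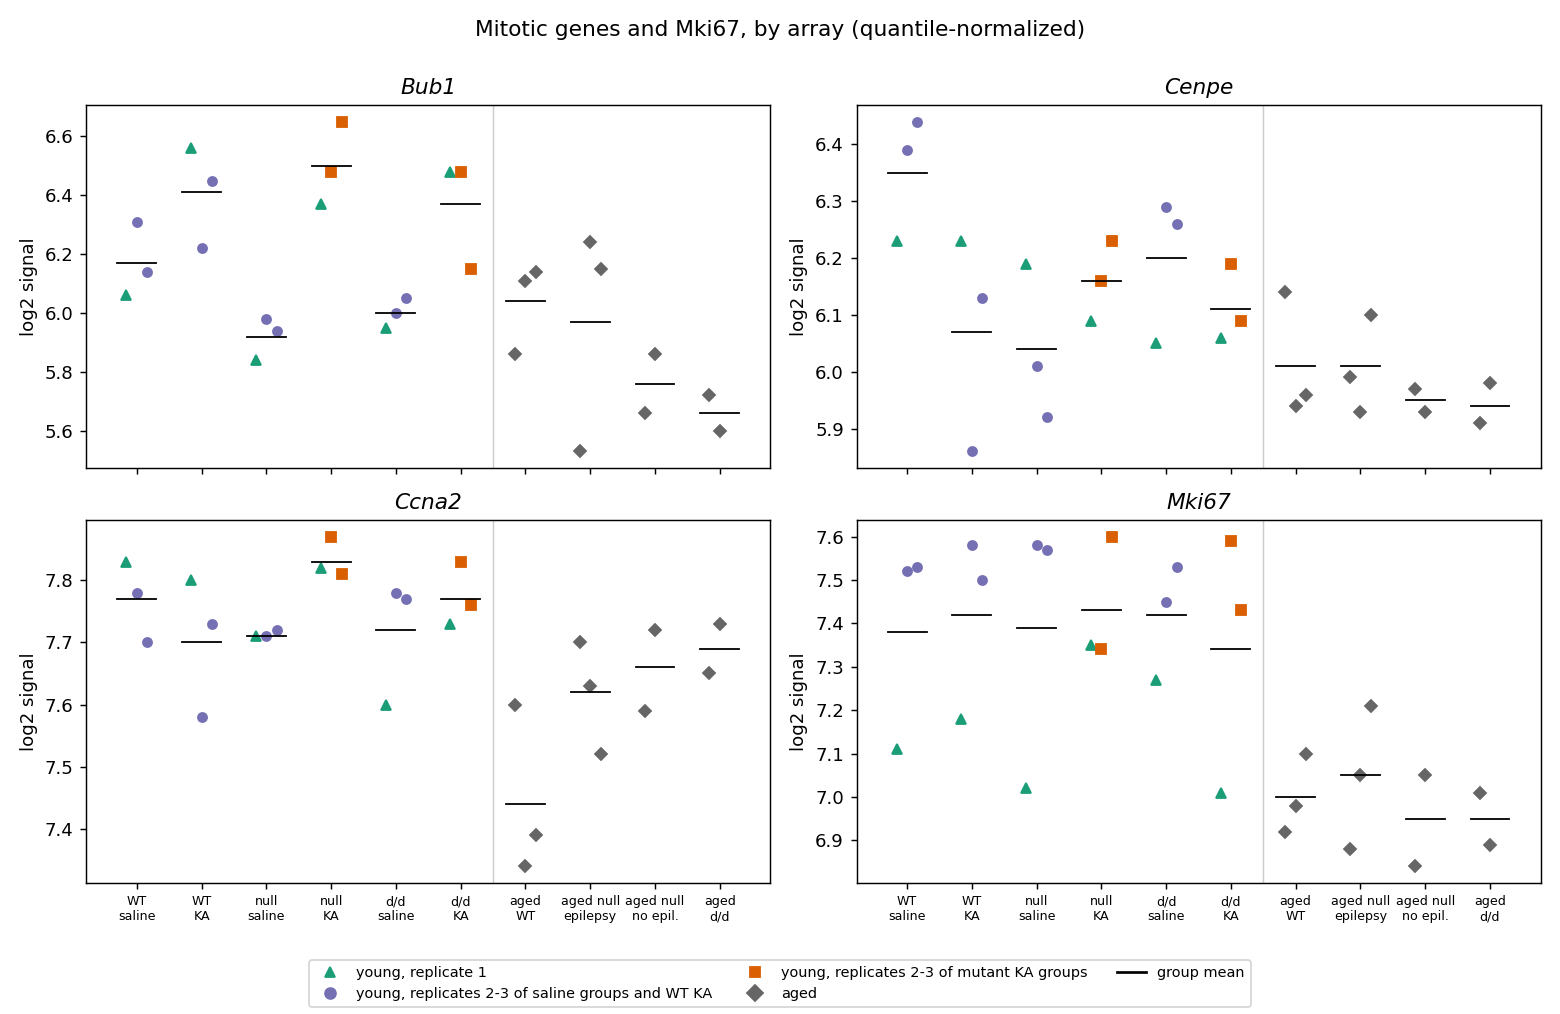
Log2 signal after quantile normalization (vertical axis) of Bub1, Cenpe, Ccna2 and Mki67 in each of the 28 arrays, by group (horizontal axis); each symbol is an array, its shape and colour give the array set, and bars are group means. Bub1 is higher in fosB-null KA (6.37 to 6.65) than in fosB-null saline (5.84 to 5.98), and Mki67 in young replicate 1 (triangles) ranges from 7.01 to 7.35, beside 6.84 to 7.21 in the aged arrays.

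**Figure D5:**
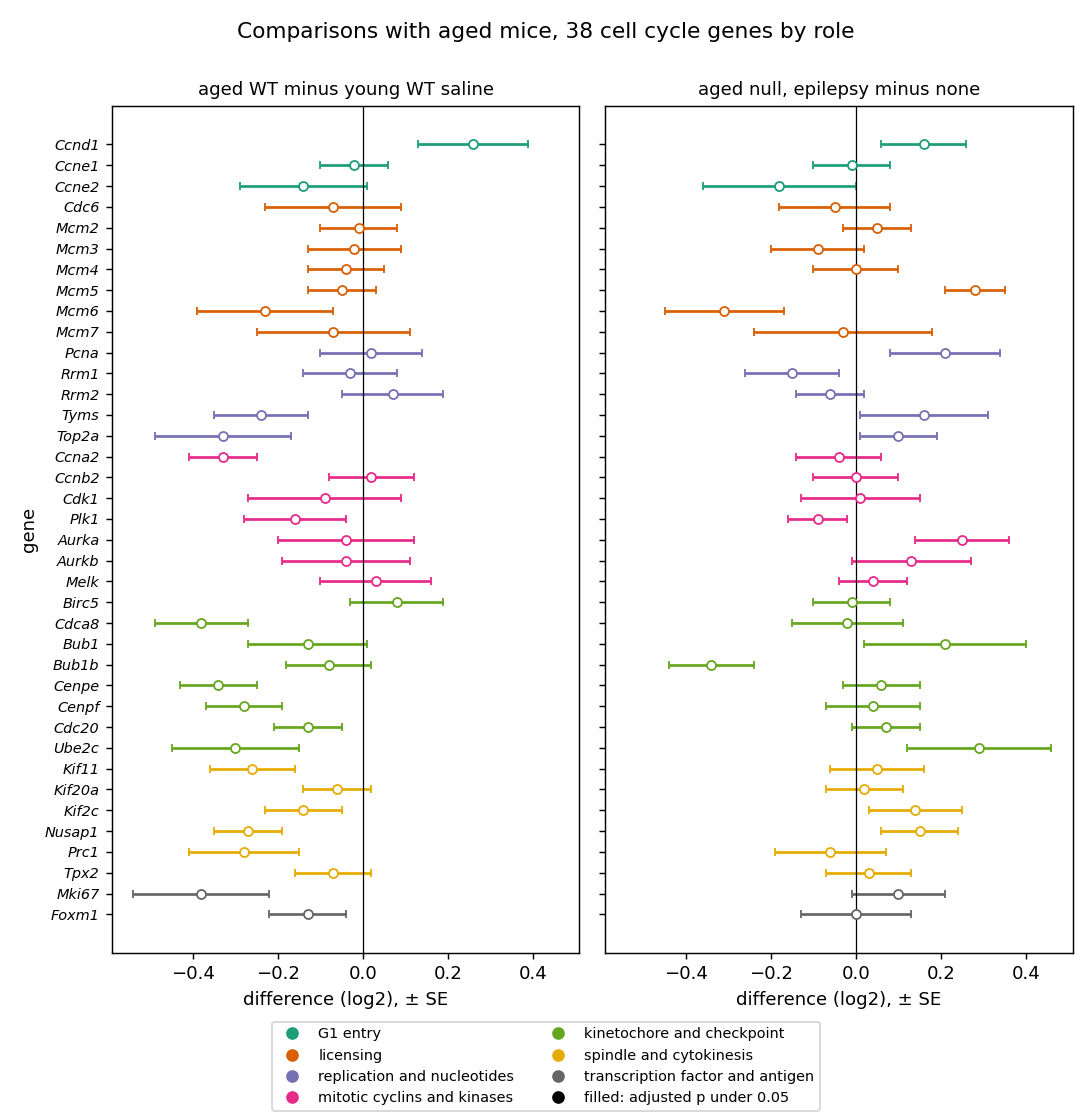
Difference in log2 signal (horizontal axis) with its standard error for each of the 38 genes (vertical axis, ordered and coloured by role), for aged minus young saline wild type mice and for aged fosB-null mice with minus without epilepsy; a filled point would have an adjusted p under 0.05, and none is filled. In the first panel 32 of 38 genes lie below 0.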

How the data were processed

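The deposited values are log2 signals of 35557 probe sets in 28 columns, 1 per array, with 0 other columns of per-sample values. Per the submitters' processing notes the authors used Affymetrix Expression Console. The version and normalization algorithm were not given in the sources used here, and no raw intensities were analysed. Since deposited array medians ran from 7.95 to 8.43, the 28 columns were quantile normalized. Within groups arrays correlated at 0.986 to 0.998.

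The platform's gene table held 23410 of them, 21789 with 1 symbol and 1621 with several, and the other 12147 had no entry. For the 999 genes with more than 1 probe set (Pcna and Top2a among the cell cycle genes) the one with the highest mean was kept, leaving 19938 genes. Groups followed titles and treatment labels. Contrasts of group means were fitted with limma 3.58.1 in R 4.3.3, with 1 fit of the 18 young arrays, 1 of the 10 aged arrays, and all 28 for aged against young wild type. Benjamini-Hochberg adjustment ran over all genes of a comparison, and a gene was called at an adjusted p under 0.05. All log2 differences, SEs and p values in the report come from these fits, except where another setting is named.

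The genes and the marker lists were chosen with earlier results of these data known. All listed genes could be named, with array values for those that passed in a comparison or, where none did, for the 3 of smallest p, and of other lists at most the 3 genes of smallest p. For the text on age, Mki67 and Top2a were given in full after their values were seen.

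The groups share replicate numbers whose meaning is not stated. They were taken as pairing arrays where, in each of 3 pairs, the deviations from group means correlated above 0.1. This held for KA against saline in fosB-null (0.23 to 0.38) and in fosB d/d (0.26 to 0.36). It also held between fosB d/d and wild type under saline (0.40 to 0.77), between fosB-null and wild type after KA (0.35 to 0.48) and between aged wild type and aged epileptic fosB-null mice (0.21 to 0.50). It did not hold in the other comparisons. Arrays of different number were not correlated this way. Since replicate 1 of every young group lay in the first array set, pairing and array set cannot be told apart in young mice. The array sets were taken from medians and replicate numbers after the data had been seen.

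Alternatives were the deposited scale, arrays centred on their median, the replicate number or array set as a block, the second array set alone, the removal of the lowest 30% of genes, probe sets averaged per gene, robust moderation with a trend, only the groups compared, and each array left out. The fits were also checked on simulated data with known changes in 200 genes. Promoters came from the RefSeq table of GRCm38.p6, searched on both strands.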

Additional observations from a re-analysis of the deposited data

How the results depend on the processing

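Of the gene results in young and aged mice 41 were refitted 579 times in all. These were the genes that passed in a comparison or, where none did, the 3 of smallest p. The counts therefore say nothing of weaker results. A direction was reversed in 0 of these refits, 547 kept their side of the threshold, 21 lost a call and 11 gained one. For KA in wild type mice, 4 cell cycle genes passed; 2 passed on the deposited scale, 2 when only the groups compared were fitted, 7 with the replicate block (wild type replicate numbers did not pair the arrays, with correlations of -0.17 to 0.25), 8 with the array set as a block, 9 in the second set alone, and 2 to 4 with an array left out (2 without wild type saline replicate 3). Over all genes 1375 passed there, against 2880 with the replicate block, 3504 with the array set as a block and 3538 in the second set alone. For KA in fosB-null mice, 1 passed; 0 did on the deposited scale, without the lowest 30% of genes (which removes Bub1), with only the groups compared or with the array set as a block, 2 did with the replicate block, and 0 to 1 with an array left out. For KA in fosB d/d mice the count was 1 with the replicate block. Both genotype differences in the KA response gave 1 with the array set as a block. For fosB-null against wild type the count was 2 in the second set under saline (Cenpe and Plk1, both lower), and after KA 1 with the replicate block and 2 with the array set as a block (Aurka and Mcm2). For fosB d/d against wild type after KA it was 4 on the deposited scale, 1 with the replicate block, 2 with the array set as a block, and 0 to 1 with an array left out (1 without wild type KA replicate 3). For aged against young wild type it was 0 to 2. The replicate block changed the count in no other comparison. Apart from what the report says of array sets and of the genes removed by a filter, the cause of these changes was not tested. With 2 or 3 arrays a group and 19 of 38 genes near the dim end of the array, small changes could not be resolved.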
